A study of Mus musculus with 15 samples.

Results

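The comparison was between a pair of dendritic cell (DC) populations of the mouse small intestinal lamina propria (LP) that both lack CD11b at the surface and differ in CD103: CD103-CD11b- DCs, on 3 arrays, and CD103+CD11b- DCs, on 3 arrays. These 6 arrays were taken by their cell type label from 15 arrays in all, and every difference below is the log2 signal of CD103-CD11b- DCs minus that of CD103+CD11b- DCs, for each of 19938 genes. All arrays came from untreated wild-type C57BL/6 mice at steady state, and the groups share every step before the sort: Peyer's patches and the epithelium were removed, the LP was digested with collagenase VIII and DNase, and cells were sorted by flow cytometry. The DC gate was CD45+CD11c+MHCII+CD64-. The remaining 9 arrays held CD103-CD11b+ DCs, CD103+CD11b+ DCs and CD64+ macrophages, with 3 arrays each. The sources used here do not say how many mice gave each array, so that the p-values measure the spread between these samples. In sorted bulk RNA, fewer cells of a type and less RNA per cell cannot be told apart.

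CD103, encoded by Itgae, is the integrin αE chain, which with β7 binds E-cadherin on epithelial cells, and CD11b, encoded by Itgam, is the integrin αM chain. Intestinal CD103+CD11b- DCs are the tissue's conventional type 1 DCs (cDC1), which depend on IRF8 and BATF3, carry the chemokine receptor XCR1 and are known for cross-presentation to CD8+ T cells. Conventional type 2 DCs (cDC2), most of which carry CD11b, express SIRPα and depend in part on IRF4. The CD103-CD11b- fraction is the least defined of the DC gates, since it is set only by the absence of both integrins.

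The genes behind the gates were looked at first. Itgae read 8.61, 8.71 and 8.96 on the CD103-CD11b- arrays and 10.96, 10.86 and 10.87 on the CD103+CD11b- arrays. Itgam, the gene for a marker that both gates lack, read 7.02, 6.51 and 6.40 in CD103-CD11b- DCs and 4.76, 5.05 and 4.99 in CD103+CD11b- DCs, against means of 9.53 and 9.56 in the CD11b+ populations. Itgam mRNA was thus 1.71 ± 0.14 (SE) higher in CD103-CD11b- DCs (adjusted p = 1.47e-06) and remained below both CD11b+ populations. Fcgr1, which encodes the macrophage marker CD64, read 3.69 to 4.55 on the 6 arrays and had a mean of 8.92 in macrophages. Among general DC genes, the growth factor receptor gene Flt3 differed by -0.15 ± 0.12, the DC transcription factor gene Zbtb46 by -0.24 ± 0.14, the CD11c gene Itgax by -0.02 ± 0.12 and the MHC class II gene H2-Ab1 by -0.07 ± 0.08. Of 14 measured pan-DC genes, 13 were not called, 7 had an unadjusted p under 0.05 in limma, and the list had a median difference of -0.08 and a range from -0.72 to 1.01. Higher calls made up 7.14% of this list and 1.61% of all genes. The called gene was Bcl11a, which encodes a transcription factor of lymphoid and DC progenitors, at 1.01. Its difference was 0.77 without CD103-CD11b- replicate 1, 0.99 without CD103+CD11b- replicate 2 and 0.94 without CD103+CD11b- replicate 3, each below the limit of 1.

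A gene was called when its Benjamini-Hochberg adjusted p in limma was under 0.01 and its log2 difference was over 1 in either direction. By this rule CD103-CD11b- DCs had 321 genes (1.61% of those tested) at a higher and 209 genes (1.05%) at a lower signal, and the median over all genes was 0.02. The 3 arrays of one population lay wholly above those of the other for each of these calls, which was so for 13.4% of all genes in the upward and 11.3% in the downward direction. The difference was over 2 on the log2 scale for 91 of the higher and 29 of the lower genes, and over 3 for 20 and 5 genes. With replicate 2 of both populations left out, for a reason given below with the marker lists, the counts were 275 higher and 182 lower.

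**Figure D1:**
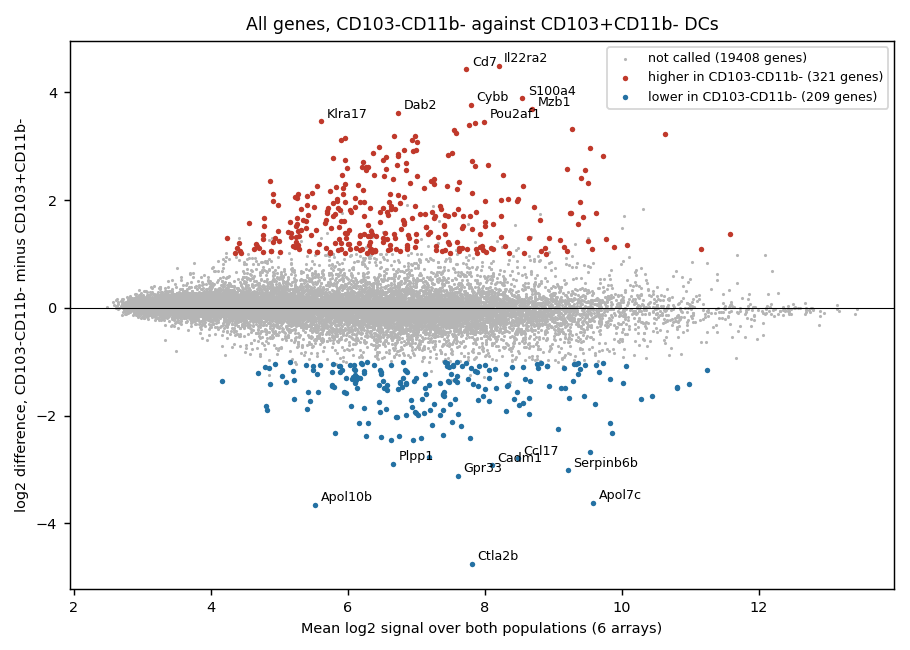
Difference in log2 signal between CD103-CD11b- and CD103+CD11b- DCs (vertical axis) against the mean log2 signal over both (horizontal axis) for all genes, one point a gene; red, blue and grey points are genes called higher, called lower and not called. The higher calls reach 4.49 (Il22ra2) and the lower ones -4.74 (Ctla2b).

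The largest upward difference was that of Il22ra2, which encodes the soluble IL-22 binding protein that holds IL-22 away from the epithelium. Il22ra2 read 10.09, 10.67 and 10.60 in CD103-CD11b- DCs and 5.15, 6.66 and 6.07 in CD103+CD11b- DCs, a difference of 4.49 ± 0.33 (22.5-fold, adjusted p = 4.32e-07). Cd7, which encodes an immunoglobulin superfamily receptor of T and NK cells, read 10.30, 9.64 and 9.91 against 4.51, 6.09 and 5.96 and was 4.43 ± 0.39 higher. The lowest CD103-CD11b- array was more than 3 log2 units above the highest CD103+CD11b- array for both genes.

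The calcium-binding protein genes S100a4 and S100a6 were higher by 3.89 and 3.23. S100a4 read 10.71, 10.23 and 10.54 against 6.28, 7.19 and 6.34. Cybb, which encodes the gp91phox subunit of the phagocyte NADPH oxidase, read 9.40, 9.92 and 9.71 against 5.48, 6.58 and 5.67 and was 3.77 ± 0.21 higher. Replicate 2 was the highest of the CD103+CD11b- arrays for Il22ra2, Cd7, S100a4, S100a6 and Cybb.

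Dab2, a clathrin adaptor gene, was 3.62 ± 0.21 higher. The C-type lectin-like receptor gene Klra17 read 7.42, 7.19 and 7.42 against 3.99, 3.79 and 3.86 and was 3.46 ± 0.27 higher. The inhibitory receptor genes Sirpa and Siglece were 3.39 and 3.24 higher, and Fcer1g, which encodes the Fc receptor γ chain, a signalling adaptor, was 3.32 higher. The remaining leading genes of this direction, Mzb1, Pou2af1, Ly6d, Thy1 and Tnfrsf17, are described with the lymphoid lists. The paper lists Il22ra2, S100a4, S100a6, Dab2, Klra17 and Mzb1 as unique to CD103-CD11b+ DCs. Its list came from these same arrays, with CD103-CD11b- DCs left out. Cd7, Cybb and Fcer1g were called against neither CD11b+ population.

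Among the genes that were lower, Ctla2b, which encodes a protein related to cysteine protease propeptides, read 5.39, 5.40 and 5.52 in CD103-CD11b- DCs and 10.17, 9.73 and 10.64 in CD103+CD11b- DCs. This difference of -4.74 ± 0.26 (26.8-fold, adjusted p = 4.66e-08) was the largest of either direction. Both CD11b+ populations read 5.31 to 6.33 for Ctla2b, so that CD103+CD11b- DCs stood apart from the other DCs.

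A pair of apolipoprotein L genes followed. Apol10b read 3.87, 3.70 and 3.52 against 7.44, 7.04 and 7.56 (-3.65 ± 0.22). Apol7c read 8.44, 7.24 and 7.65 against 11.68, 11.01 and 11.50 (-3.62 ± 0.29). Both sets of arrays were apart by more than 2 log2 units.

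Genes of the serpin family of protease inhibitors were also lower, Serpinb6b at a log2 difference of -3.01 ± 0.13 and Serpinb9, which encodes an inhibitor of granzyme B, at -2.40 ± 0.20. Dnase1l3, a secreted nuclease gene, had a difference of -2.67 ± 0.22 and the tight junction gene Cldn1 one of -2.41 ± 0.18. Gpr33, Cadm1, Plpp1 and Snx22 are described with the cDC1 markers and Ccl17 and Lif with the cytokines. Ttc39a and Fndc7 completed the leading genes at -2.76 and -2.45. Without replicate 2 of both populations Lif kept a difference of -2.25 at an adjusted p of 0.0259, and was not called.

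**Figure D2:**
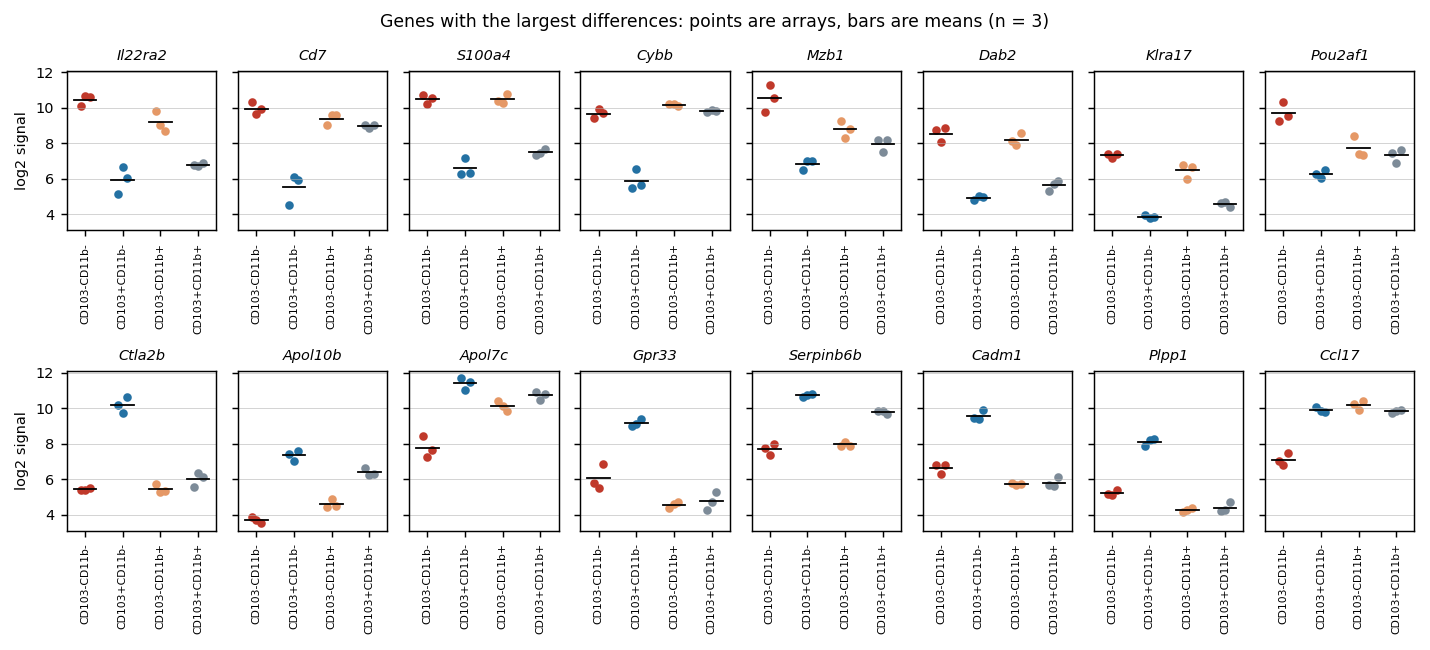
The log2 signal (vertical axis) of the 8 genes with the largest upward differences (upper row) and the 8 with the largest downward differences (lower row) in the 4 DC populations; points are arrays and bars are means (n = 3). For each gene the CD103-CD11b- points do not overlap those of CD103+CD11b- DCs, as for Il22ra2 (10.09 to 10.67 against 5.15 to 6.66).

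Promoters, here the 250 bases before and 50 after the annotated start in RefSeq (GRCm38.p6), were searched on both strands for the core of an interferon regulatory factor element, AANNGAAA, and for the AP-1 element TGANTCA, which BATF proteins also bind with JUN partners. AANNGAAA was present for 79 of 242 higher genes with a promoter (32.6%), for 44 of 173 lower genes (25.4%) and for 24.3% of 15614 genes in all. TGANTCA was present for 11.2% of the higher, 12.1% of the lower and 8.08% of all genes. No test was made of these shares, and a match is a match of letters and no evidence that a factor binds. The promoters printed here are those of the genes with the largest differences among the leading genes that have a promoter in the table and hold either motif, 2 in each direction, on the strand of the gene and with the matches in capitals. Il22ra2, Cd7, Mzb1, Sirpa, Thy1, Ly6d, Cadm1, Plpp1, Dnase1l3 and Fndc7 had no entry there and were not searched.
Cybb (GRCm38.p6, chrX:9469275-9469574, minus strand): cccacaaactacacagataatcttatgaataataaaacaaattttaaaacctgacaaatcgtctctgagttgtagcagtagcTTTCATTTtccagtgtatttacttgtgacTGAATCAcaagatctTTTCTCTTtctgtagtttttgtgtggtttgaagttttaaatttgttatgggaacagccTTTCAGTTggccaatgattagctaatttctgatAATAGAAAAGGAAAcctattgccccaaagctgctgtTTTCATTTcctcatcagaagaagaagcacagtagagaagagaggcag
Dab2 (GRCm38.p6, chr15:6386498-6386797, plus strand): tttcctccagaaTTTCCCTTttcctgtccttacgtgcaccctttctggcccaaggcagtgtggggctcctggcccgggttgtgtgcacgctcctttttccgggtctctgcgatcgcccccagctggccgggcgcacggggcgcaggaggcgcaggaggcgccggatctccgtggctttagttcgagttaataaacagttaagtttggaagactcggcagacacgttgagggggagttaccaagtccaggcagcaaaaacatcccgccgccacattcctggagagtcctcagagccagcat
Ctla2b (GRCm38.p6, chr13:60897398-60897697, minus strand): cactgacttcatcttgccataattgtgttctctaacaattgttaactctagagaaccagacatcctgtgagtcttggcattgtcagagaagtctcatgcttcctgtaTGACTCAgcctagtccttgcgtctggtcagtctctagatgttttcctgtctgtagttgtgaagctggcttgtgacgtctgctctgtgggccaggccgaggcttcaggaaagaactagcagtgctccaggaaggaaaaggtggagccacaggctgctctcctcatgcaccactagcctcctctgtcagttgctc
Apol10b (GRCm38.p6, chr15:77596076-77596375, minus strand): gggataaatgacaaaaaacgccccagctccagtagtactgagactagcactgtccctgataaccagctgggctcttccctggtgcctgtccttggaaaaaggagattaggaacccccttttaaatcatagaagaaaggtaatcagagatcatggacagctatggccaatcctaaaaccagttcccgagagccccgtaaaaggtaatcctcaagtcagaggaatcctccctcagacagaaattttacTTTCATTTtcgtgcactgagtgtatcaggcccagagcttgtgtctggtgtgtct
Cybb, higher in CD103-CD11b- DCs, held 6 matches to AANNGAAA, of which one pair overlapped, and 1 to TGANTCA. Of the 2 promoters annotated for Dab2, the one shown held 1 match to AANNGAAA. In the other direction, Ctla2b held 1 match to TGANTCA and Apol10b 1 match to AANNGAAA, close to the start.

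cDC1 markers were lower as a group in CD103-CD11b- DCs. Many of them, Xcr1, Irf8 and Clec9a included, are listed in the paper as unique to CD103+CD11b- DCs on these same arrays. The counts of this list are therefore a description and no independent support. Of 25 measured markers, 19 (76%) were lower and 0 were higher, where 1.05% and 1.61% of all genes were. The median difference was -1.47, and Itgae, one of the 19, was itself used for the sort. Without 1 array the count of lower markers was 17 to 19. The chemokine receptor gene Xcr1 read 8.84, 8.30 and 8.95 in CD103-CD11b- DCs and 11.03, 10.92 and 11.12 in CD103+CD11b- DCs (-2.33 ± 0.26, adjusted p = 2.13e-05). Xcr1 was nonetheless higher than in the CD11b+ populations, whose means were 5.65 and 6.32. Irf8, the lineage's transcription factor gene, read 10.05, 10.11 and 10.05 against 11.52, 11.33 and 11.76 (-1.47 ± 0.18) and had means of 7.85 and 7.48 in the CD11b+ populations.

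The adhesion molecule gene Cadm1 read 6.81, 6.31 and 6.82 against 9.47, 9.36 and 9.88 (-2.92 ± 0.30), and neither CD11b+ population differed from CD103-CD11b- DCs by a call. The formyl peptide receptor-like gene Gpr33 had the largest difference of the list at -3.11 ± 0.30, followed by the lipid phosphatase gene Plpp1 at -2.89 ± 0.14 and the sorting nexin gene Snx22 at -2.46 ± 0.23. Cd8a, which encodes CD8α, was 7.08, 6.94 and 7.10 against 8.85, 8.51 and 8.90 (-1.72 ± 0.19). The inhibitory receptor gene Btla had a difference of -1.33 ± 0.16. Clec9a, which encodes a receptor for actin filaments of dead cells, read 9.30, 8.73 and 9.46 against 10.66, 10.31 and 10.49 (-1.32 ± 0.26, adjusted p = 0.00379), and its adjusted p was 0.0242, 0.0207 and 0.0168 without CD103-CD11b- replicate 2, CD103+CD11b- replicate 1 and CD103+CD11b- replicate 3.

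Compared with the other DC populations by their own tests, 13 of the 25 cDC1 markers were higher in CD103-CD11b- than in CD103-CD11b+ DCs, where 0.356% of all genes were. Against CD103+CD11b+ DCs 14 were higher, where 0.908% of all genes were, and 1 was lower, the sorted gene Itgae. The mean log2 signal of the list was 7.90 to 8.29 on the CD103-CD11b- arrays, 9.57 to 9.72 on the CD103+CD11b- arrays, 6.66 to 6.72 in CD103-CD11b+ and 6.72 to 6.98 in CD103+CD11b+ DCs. The CD103-CD11b- arrays thus lay between CD103+CD11b- DCs and both CD11b+ populations, with no overlap. These comparisons share the CD103-CD11b- arrays. Since many of the markers were listed from these same arrays, low signals in the CD11b+ populations were partly set in advance.

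cDC2 markers stood the other way. Many of these, Sirpa, Irf4 and Zeb2 included, are listed in the paper as shared by both CD11b+ populations on these same arrays, so their counts too are a description. Of 20 measured markers, 14 (70%) had a higher and 0 a lower signal, where 1.61% and 1.05% of all genes did. The median was 2.33, and without any 1 array 14 or 15 were higher. Sirpa read 9.68, 9.34 and 9.36 against 5.81, 6.36 and 6.05 (3.39 ± 0.14, adjusted p = 4.42e-09), close to its means of 10.06 and 9.96 in the CD11b+ populations, from which it did not differ by a call. Irf4 read 8.68, 9.20 and 8.77 against 5.79, 6.35 and 6.01 (2.83 ± 0.30) and had means of 8.75 and 9.34 in the CD11b+ populations. Irf4 is also a transcription factor gene of plasma cells. Zeb2, which encodes a repressor that cDC2 and plasmacytoid DCs use, read 6.77, 6.49 and 6.64 against 4.61, 4.68 and 5.09 (1.84 ± 0.12).

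The macrophage colony-stimulating factor receptor gene Csf1r read 8.45, 8.08 and 8.26 against 4.79, 5.28 and 5.18 (3.18 ± 0.20). Its mean was 8.70 in CD103-CD11b+ DCs, from which CD103-CD11b- DCs did not differ by a call. The paper lists Csf1r as unique to CD103-CD11b+ DCs, with CD103-CD11b- DCs left out. Cd33, which encodes a sialic acid-binding inhibitory receptor, was 2.99 ± 0.21 higher and Ltb, which encodes lymphotoxin β, 2.93 ± 0.17 higher. The lectin gene Cd209a read 8.63, 7.99 and 8.63 against 5.99, 6.49 and 5.85 (2.30 ± 0.22), below its means of 10.65 and 10.70 in the CD11b+ populations. Clec4a4, the gene for the inhibitory lectin DCIR2, was 2.35 ± 0.24 higher. Relative to CD103-CD11b+ DCs, 4 of the 20 cDC2 markers had a lower and 1 a higher signal, and relative to CD103+CD11b+ DCs 8 had a lower and 2 a higher one. Itgam, whose product was used for the sort, was among the lower ones in both comparisons and is part of the list mean. Lower calls made up 0.451% and 1.02% of all genes in these comparisons. The mean of the list was 7.72 to 7.96 on the CD103-CD11b- arrays, 5.70 to 6.04 on the CD103+CD11b- arrays and 8.56 to 8.73 over both CD11b+ populations, again with no overlap.

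**Figure D3:**
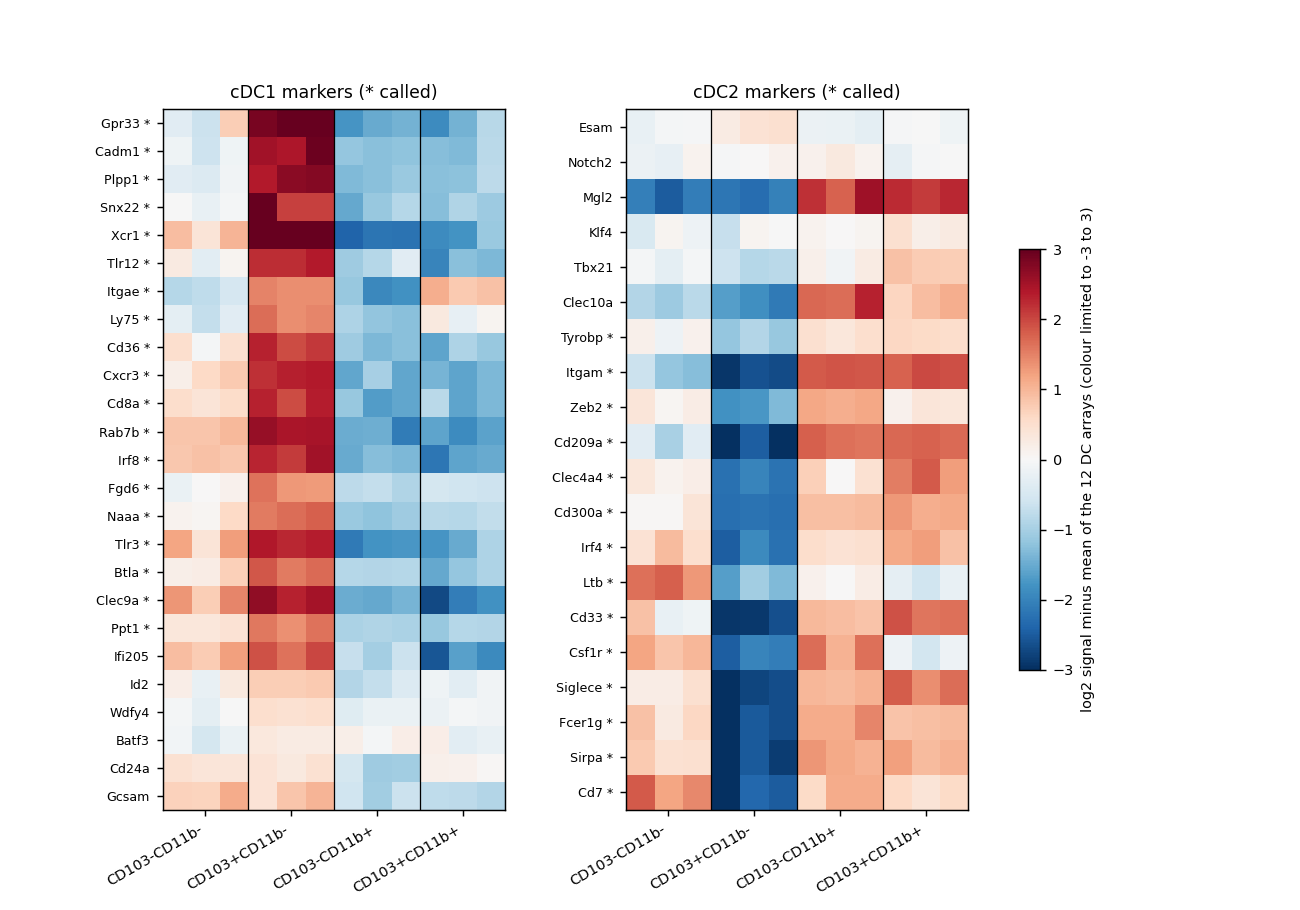
The measured cDC1 markers (left) and cDC2 markers (right) on the 12 DC arrays, 3 columns a population; colour is the log2 signal minus the gene's mean over the 12 arrays, and a star marks a gene called between both CD11b- populations. The cDC1 markers are highest in CD103+CD11b- DCs, with CD103-CD11b- DCs between these and the CD11b+ populations, and the cDC2 markers are lowest in CD103+CD11b- DCs.

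Several lists of other cell types moved with the comparison, and 2 lists marked single arrays. Plasma cell markers were higher, with a median of 1.88, 12 of 18 (66.7%) being called higher and 0 lower. Over all genes 1.61% were called higher and 1.05% lower. Of these 18, 2 were higher than in CD103-CD11b+ DCs and 7 higher than in CD103+CD11b+ DCs, where 0.356% and 0.908% of all genes were. The mean of the list was 9.35, 9.89 and 9.32 on the CD103-CD11b- arrays, 7.66 to 7.76 on the CD103+CD11b- arrays, 8.04 to 8.99 in the CD11b+ DCs and 8.33 to 9.18 in macrophages. Mzb1, which encodes a chaperone of immunoglobulin assembly, read 9.75, 11.30 and 10.56 against 6.50, 7.02 and 7.03 (3.68 ± 0.46). Pou2af1, the gene for the B cell coactivator OCA-B, read 9.25, 10.35 and 9.57 against 6.25, 6.07 and 6.48 (3.46 ± 0.37). Tnfrsf17, which encodes the plasma cell survival receptor BCMA, was 3.18 ± 0.27 higher, and Prdm1, which encodes BLIMP1, 2.88 ± 0.23 higher. The joining chain gene Jchain, which read at least 10.77 on every array of both populations, was 1.37 ± 0.20 higher, and the syndecan gene Sdc1 2.11 ± 0.29 higher. Without replicate 2 of both populations Jchain was 1.21 higher at an adjusted p of 0.0113.

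Replicate 2 was the highest CD103-CD11b- array for the plasma cell list and for Mzb1, Pou2af1, Tnfrsf17, Prdm1, Jchain and Sdc1. Without it 11 of the 18 markers were called. Of the B cell list 6 of 17 (35.3%) were higher and 0 lower, with a median of 0.41, where 1.61% and 1.05% of all genes were. The mean of the list was 5.65 to 5.88 on the CD103-CD11b- arrays and 4.83 to 4.88 on the CD103+CD11b- arrays. It was 4.87 to 5.44 in the CD11b+ DCs and 5.73 to 6.03 in macrophages. Cd79a and Cd79b, the signalling chains of the B cell receptor, were 2.80 and 2.87 higher, Vpreb3 2.90 and Blnk, an adaptor of the same receptor, 2.74 higher. Cd79b read 8.69 to 9.49 in CD103-CD11b- DCs and 8.82 to 9.24 in macrophages. Ms4a1, which encodes the B cell antigen CD20, read 3.68 to 3.77 against 3.98 to 4.22, below the array medians of 4.74 to 4.86 in both populations. The part of plasma or B cell RNA in the difference was not tested.

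Of the plasmacytoid DC list, with a median of 0.64, 6 of 17 (35.3%) were higher and 0 lower, where 1.61% and 1.05% of all genes were. Siglech, the marker gene of these cells, read 6.79, 6.20 and 5.84 against 4.39, 4.21 and 4.13 (2.03 ± 0.26) and was also higher than in both CD11b+ DC populations, though it read 5.52 to 6.43 in macrophages. Ly6d read 9.87, 9.77 and 9.05 against 6.26, 5.98 and 6.18 (3.42 ± 0.32). The transcription factor gene Spib was 2.77 ± 0.19 higher, Lair1 2.45 ± 0.17 and Cd300c 2.09 ± 0.13. The list mean was 7.18 to 7.32 on the CD103-CD11b- arrays, 6.12 to 6.17 on the CD103+CD11b- arrays and 7.07 to 7.40 in macrophages. Spib and Ly6d are also expressed by B lineage cells.

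The macrophage and monocyte list had 5 of 22 members (22.7%) higher and 0 lower, where 1.61% and 1.05% of all genes were. The list median was 0.52, and 0.16 without CD103-CD11b- replicate 1. The list mean was 6.84, 5.86 and 6.06 on the CD103-CD11b- arrays, 5.34 to 5.45 on the CD103+CD11b- arrays and 10.29 to 10.43 in macrophages. It was 6.81 to 7.28 in CD103-CD11b+ and 5.65 to 5.93 in CD103+CD11b+ DCs. Relative to CD103-CD11b+ DCs 2 members were lower and 0 higher, where 0.451% and 0.356% of all genes were. Relative to CD103+CD11b+ DCs 1 was lower and 4 were higher, where 1.02% and 0.908% of all genes were. Replicate 1 stood apart from the other CD103-CD11b- arrays here, as it did for Fcgr1 (4.55) and for the lipopolysaccharide co-receptor gene Cd14 (7.32 against 6.05 and 6.10). Dab2 and Csf1r led this list. The chemokine receptor genes Ccr2 and Cx3cr1 were 1.41 ± 0.26 and 1.19 ± 0.25 higher and lost their calls without CD103-CD11b- replicate 1 (differences of 1.35 and 0.89), without CD103-CD11b- replicate 3 (1.23 and 1.28) and without CD103+CD11b- replicate 1 (1.29 and 1.19). Ccr2 also lost its call without CD103+CD11b- replicate 2 (1.41) and Cx3cr1 without CD103+CD11b- replicate 3 (1.09). Without CD103+CD11b- replicate 1, 3 of the 22 members were called.

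Of the T, NK and innate lymphoid list 3 of 19 (15.8%) were higher and 0 lower, where 1.61% and 1.05% of all genes were. The median was 0.07. Thy1, which encodes a surface glycoprotein of T cells and innate lymphoid cells, read 9.31, 9.41 and 8.90 against 5.09, 6.31 and 6.34 (3.29 ± 0.38), and the IL-7 receptor gene Il7r was 1.43 ± 0.21 higher. The CD3 chain genes Cd3e and Cd3d differed by -0.25 ± 0.20 and -0.00 ± 0.14, with Cd3d at 3.83 to 4.26 on all 6 arrays. Cd2, which encodes an adhesion receptor of lymphocytes, read 5.65, 7.51 and 5.55 against 4.21, 4.45 and 4.53, so that replicate 2 was highest, and lost its call without any of the 3 CD103+CD11b- arrays (adjusted p = 0.0185, 0.0129 and 0.0121).

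Granulocyte and mast cell genes had a median of 0.06. Of 22 members 2 (9.09%) were higher and 0 lower, where 1.61% and 1.05% of all genes were. The higher ones were the eosinophil granule gene Prg2 (2.65 ± 0.36) and the granulocyte colony-stimulating factor receptor gene Csf3r (1.51 ± 0.19). The neutrophil gene S100a8 read 4.04 to 4.40 on the 6 arrays. Of 27 epithelial markers and 22 stromal, endothelial and glial markers, none was called by limma, 2 and 3 had an unadjusted p under 0.05, and their medians were -0.47 and -0.00. Pancreatic acinar genes marked replicate 2 of both populations. Their list mean was 5.41, 8.34 and 6.03 on the CD103-CD11b- arrays and 4.79, 8.61 and 5.12 on the CD103+CD11b- arrays. The chymotrypsinogen gene Ctrb1 read 6.85, 11.74 and 9.06 against 4.80, 11.67 and 6.56, and 0 of the 15 genes of the list were called or had an unadjusted p under 0.05. The median of the list was 0.29.

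**Figure D4:**
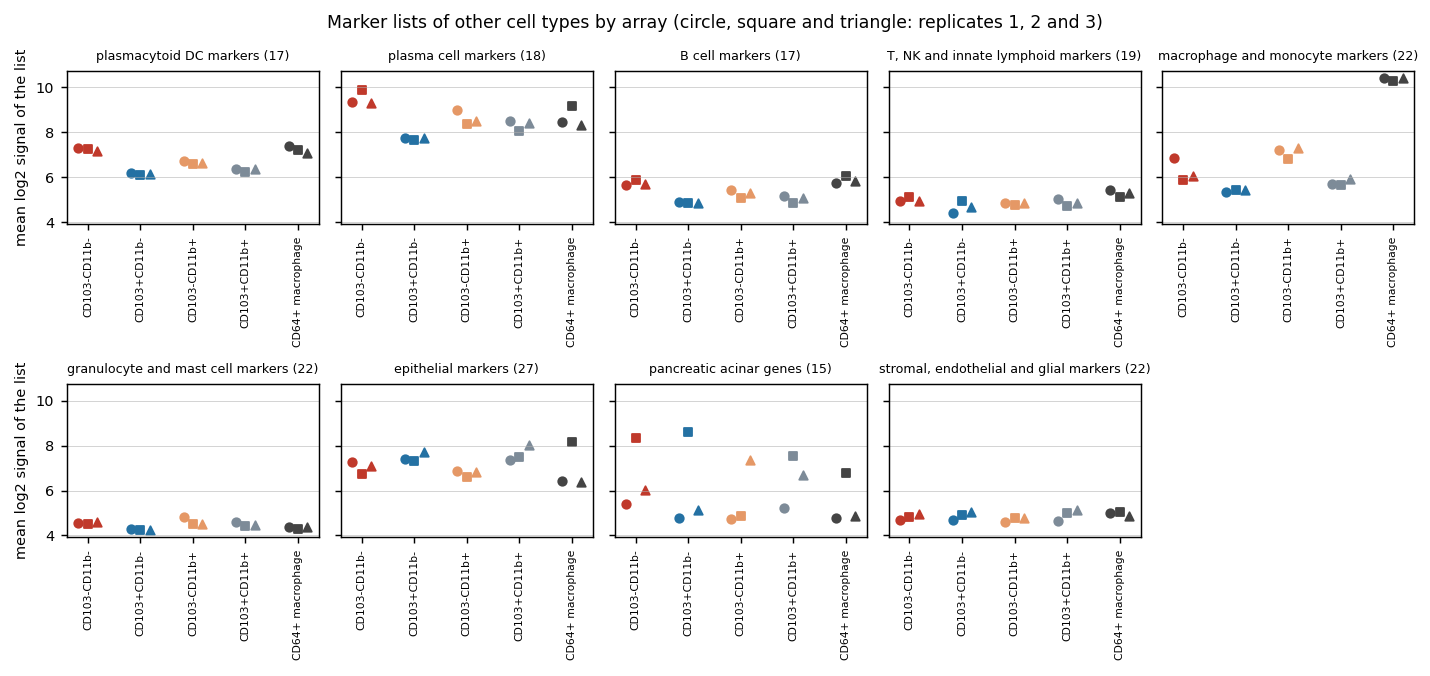
Mean log2 signal (vertical axis) of each marker list of other cell types, with the number of genes measured in brackets, on each array of the 5 populations; circles, squares and triangles are replicates 1, 2 and 3. The plasma cell list is highest in CD103-CD11b- DCs (9.32 to 9.89) and the macrophage list is highest in macrophages (10.29 to 10.43). The pancreatic list is highest on replicate 2 of both CD11b- populations (8.34 and 8.61). It varies in the other populations too, with 7.56 on CD103+CD11b+ replicate 2 and 7.37 on CD103-CD11b+ replicate 3.

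Of 40 lineage transcription factor genes 8 (20%) were higher and 3 (7.5%) lower, where 1.61% and 1.05% of all genes were. The median was 0.30. The higher ones were led by Prdm1, Irf4, Spib and the lymphoid factor gene Ikzf3 (2.12 ± 0.31). Batf2, which encodes a leucine zipper factor that can stand in for BATF3, read 5.71, 5.46 and 5.69 against 7.65, 7.34 and 7.49 (-1.88 ± 0.23), and Irf8 was the second of the lower ones. The third was Mycl, a MYC family gene of cDC1, at -1.12 ± 0.17, whose difference was -0.95 without CD103-CD11b- replicate 2.

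Receptors of innate recognition went both ways, with a median of 0.17. Of 24 pattern recognition receptors 4 (16.7%) were higher and 3 (12.5%) lower, where 1.61% and 1.05% of all genes were. Nod1, which encodes a cytosolic sensor of bacterial peptidoglycan, read 6.99, 7.22 and 7.09 against 4.82, 4.64 and 4.98 (2.29 ± 0.13). The gene for the viral RNA sensor RIG-I, Ddx58, read 7.31, 7.81 and 7.21 against 5.57, 5.58 and 5.65 (1.85 ± 0.13). The inflammasome gene Nlrp3 was 1.22 ± 0.24 higher but was not called without CD103-CD11b- replicate 2 (1.03) or 3 (1.25) or without CD103+CD11b- replicate 1 (0.99) or 3 (1.19). Tlr2, the receptor gene for bacterial lipopeptides, was 1.18 ± 0.20 higher, and 1.08 higher at an adjusted p of 0.0192 without replicate 2 of both populations.

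In the other direction, Tlr12, which encodes a receptor for profilin of apicomplexan parasites, read 8.20, 7.63 and 8.03 against 10.14, 10.14 and 10.31 (-2.25 ± 0.33). Tlr3, which encodes the receptor for double-stranded RNA, had a difference of -1.39 ± 0.29, with adjusted p values of 0.0289 without CD103-CD11b- replicate 2 and 0.0212, 0.0159 and 0.0214 without CD103+CD11b- replicates 1, 2 and 3. Tlr13, which encodes a receptor for bacterial ribosomal RNA, was at -1.06 ± 0.18 and at -0.97 and -0.99 without CD103-CD11b- replicate 2 and CD103+CD11b- replicate 3. Without either of these arrays only 1 of the 24 receptors was called lower.

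Paired and ITIM receptors bind sialic acids, lipids or self proteins and signal through inhibitory motifs or the adaptors of the Fc receptor family. Of 30 such genes 14 (46.7%) were higher and 1 (3.33%) lower, where 1.61% and 1.05% of all genes were. The other 15 were not called, and the median was 1.02. The higher ones were led by Sirpa, Fcer1g, Siglece and Cd33, which are given above. Treml4, which encodes a receptor for dead cells, was the lower one, at 7.82, 7.22 and 7.92 against 9.68, 9.50 and 9.71 (-1.97 ± 0.27). Against CD103+CD11b+ DCs, 12 of these 30 genes were lower in CD103-CD11b- DCs and 1 was higher, where 1.02% and 0.908% of all genes were. Compared with CD103-CD11b+ DCs 2 were lower and 1 was higher, where 0.451% and 0.356% of all genes were.

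Of 27 C-type lectin receptor genes 7 (25.9%) were higher and 3 (11.1%) lower, where 1.61% and 1.05% of all genes were. The median was 0.48. Cd209d, a relative of the gene for DC-SIGN, read 7.64, 7.18 and 7.77 against 4.49, 4.35 and 4.31 (3.15 ± 0.17), and its means in the other DCs were 5.61 and 4.49. Klrd1, which encodes CD94 of NK cells, read 10.88, 10.41 and 10.92 against 7.95, 8.44 and 8.14 (2.56 ± 0.23). Ly75, the gene for the endocytic receptor DEC-205, had a difference of -1.96 ± 0.14. Clec9a and Clec1a were the other two lower members, and Clec1a at -1.03 ± 0.21 was not called without CD103-CD11b- replicate 1 (-1.02) or 2 (-0.84) or without CD103+CD11b- replicate 1 (-0.77) or 3 (-1.08). Without CD103-CD11b- replicate 2, or without CD103+CD11b- replicate 1 or 3, only 1 of the 27 was called lower.

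Receptors of dead cells and lipids, a list of 20 genes, had a median of -0.05. Of these, 4 (20%) were lower and 0 higher, where 1.05% and 1.61% of all genes were. The scavenger receptor gene Cd36 read 7.79, 7.24 and 7.78 against 9.60, 9.24 and 9.40 (-1.81 ± 0.18). Besides Ly75 and Clec9a, the fourth was Havcr2, which encodes the phosphatidylserine receptor TIM-3, at -1.02 ± 0.14. It was at -0.85 without CD103-CD11b- replicate 1 and at -0.96 without CD103+CD11b- replicate 3, and without the latter array 2 of the 20 genes were called.

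Of 33 chemokine and chemokine receptor genes 7 (21.2%) were higher and 5 (15.2%) lower, where 1.61% and 1.05% of all genes were. The median was 0.16. Ccr1, a receptor gene for inflammatory CC chemokines, read 7.91, 7.14 and 7.31 against 3.98, 4.54 and 4.52 (3.11 ± 0.25), and Ccr10, which encodes a receptor of IgA plasma cells and skin-homing T cells, 7.62, 8.51 and 7.41 against 4.84, 5.60 and 5.38 (2.58 ± 0.37). Ccrl2, a chemerin-binding receptor gene, was 1.77 ± 0.16 higher. The lower members held both ligands of CCR4. Ccl17 read 7.04, 6.80 and 7.46 against 10.06, 9.83 and 9.77 (-2.79 ± 0.18), and Ccl22 6.98, 6.12 and 6.57 against 9.19, 8.53 and 8.54 (-2.20 ± 0.23). Both ligands were also lower than in either CD11b+ population, whose means were 10.18 and 9.82 for Ccl17 and 8.67 and 9.04 for Ccl22. The receptor gene Cxcr3 had a difference of -1.78 ± 0.17.

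Cytokine and TNF family ligand genes split evenly, 6 of 28 (21.4%) being higher and 6 (21.4%) lower, with a median of 0.06. Both shares were above those over all genes, 1.61% and 1.05%. Il22ra2 and Ltb led the higher ones. Il1b, which encodes the inflammatory cytokine IL-1β, read 10.52, 10.61 and 10.38 against 8.68, 9.16 and 8.38 (1.77 ± 0.23), and Il1rn, which encodes its receptor antagonist, 6.76, 7.47 and 7.42 against 5.18, 5.11 and 5.48 (1.96 ± 0.16). The decoy receptor gene Il1r2 was 2.40 ± 0.34 higher and read 10.09, 11.03 and 10.69 against 7.27, 9.05 and 8.27.

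Lif, the gene for leukaemia inhibitory factor, read 6.53, 6.66 and 6.55 against 8.43, 9.41 and 9.14 (-2.41 ± 0.42, adjusted p = 0.00133), and Lifr, which encodes its receptor, was 1.63 ± 0.14 higher. Il12b, the p40 subunit gene of IL-12 and IL-23, read 5.14, 5.85 and 4.70 against 7.85, 7.20 and 7.04 (-2.14 ± 0.25). Il15, whose product sustains NK cells and CD8+ T cells, read 5.60, 5.25 and 5.88 against 7.32, 7.37 and 7.30 (-1.75 ± 0.19). Tnf had a difference of -1.63 ± 0.19 and was lower than in every other DC population. The p35 subunit gene Il12a read 3.60 to 4.30 on the 6 arrays and was not called. Without replicate 2 of both populations 3 of the 28 genes were called lower.

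Genes of growth factor and cytokine receptors had 7 of 27 (25.9%) higher and 0 lower, where 1.61% and 1.05% of all genes were. The list median was 0.28, and Csf1r, Il1r2, Lifr and Csf3r led the higher ones. The stem cell factor receptor gene Kit differed by -0.04 ± 0.11. Of 27 integrin and adhesion genes 3 (11.1%) were higher and 6 (22.2%) lower, with a median of -0.17, and Itgam and Itgae were among them. The other two higher ones were Emb, which encodes the adhesion protein embigin (2.69 ± 0.18), and Itgal, the CD11a gene (1.89 ± 0.25). The lower ones held Cadm1, the integrin genes Itga3 (-1.72 ± 0.14) and Itga1 (-1.47 ± 0.17) and the tetraspanin gene Cd81 (-1.64 ± 0.20).

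Vitamin A is converted by intestinal CD103+ DCs to retinoic acid, which imprints gut homing on lymphocytes. Of 25 retinoic acid and TGF-β genes 4 (16%) were lower and 1 (4%) was higher, where 1.05% and 1.61% of all genes were. The higher gene was Tgfbi (1.14 ± 0.19), and the list median was -0.14. Aldh1a2, which encodes the retinaldehyde dehydrogenase of this conversion, read 6.11, 5.74 and 6.21 against 8.04, 7.90 and 7.97 (-1.95 ± 0.12), and was also below its means of 7.29 and 7.53 in the CD11b+ DCs by calls. Cyp26b1, which encodes an enzyme that degrades retinoic acid, read 4.90, 5.15 and 5.21 against 7.07, 7.13 and 7.49 (-2.14 ± 0.13). The TGF-β superfamily receptor gene Acvrl1 was at -1.42 ± 0.18 and the retinol dehydrogenase gene Dhrs9 at -1.19 ± 0.15, or -0.96 without CD103-CD11b- replicate 2. Aldh1a1 read 3.85 to 4.69 on the 6 arrays and did not differ by a call.

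Of 14 MHC class II pathway genes, a list of general DC function, 2 (14.3%) were higher and 0 lower. The shares over all genes were 1.61% and 1.05%. The higher genes were the lysosomal protease genes Ctsd (1.75 ± 0.18) and Lgmn (1.18 ± 0.14), and the median was -0.11. Of 24 MHC class I and cross-presentation genes, whose median was -0.25, 1 (4.17%) was higher and 1 (4.17%) lower. Cybb was the higher one. Rab43, a vesicle traffic gene, was the lower one (-1.02 ± 0.13, and -0.85 and -0.92 without CD103-CD11b- replicate 2 and CD103+CD11b- replicate 1). The transporter gene Tap1 was at -0.78 ± 0.16 with an adjusted p of 0.00587, short of the size limit, and B2m at 0.16 ± 0.12.

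Among 22 maturation and migration genes 2 (9.09%) were higher and 3 (13.6%) lower, where 1.61% and 1.05% of all genes were. The median was 0.25. The chemokine receptor gene Ccr7, which guides DCs to lymph nodes, read 8.63, 8.65 and 8.15 against 8.52, 7.87 and 7.99 and was not called, nor was the actin bundling gene Fscn1 (0.81 ± 0.31). Samsn1, which encodes an adaptor, was 1.71 ± 0.14 higher. The second higher gene, Socs2, a cytokine signalling suppressor gene, was 1.32 ± 0.30 higher and had an adjusted p of 0.0144 to 0.0522 with any 1 of the 6 arrays left out. The costimulatory ligand gene Cd86 was lower, at 8.22, 8.80 and 8.80 against 9.87, 9.61 and 9.67 (-1.11 ± 0.15), or -0.91 without CD103-CD11b- replicate 1.

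The interferon-stimulated genes numbered 29, with 4 higher, 1 lower and a median of 0.36. The guanylate binding protein genes Gbp7 and Gbp3 were 1.32 ± 0.15 and 1.29 ± 0.16 higher and Ifi27l2a 1.16 ± 0.10 higher, while Oasl1 was at -1.47 ± 0.23. Rtp4, a chaperone gene of membrane receptors, was 1.05 ± 0.21 higher and was not called without CD103-CD11b- replicates 1 (0.81) or 3 (1.09) or CD103+CD11b- replicates 1 (1.06) or 3 (0.89). Ifit1 read 3.67 to 3.96 on all 6 arrays.

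Of 36 cell cycle genes none was called by limma, 6 of them had an unadjusted p under 0.05, and the median was -0.08. Higher and lower calls made up 1.61% and 1.05% of all genes. Mki67, the proliferation marker gene, read 8.98, 9.29 and 9.33 against 8.96, 9.23 and 9.29. Of 26 immediate early and heat shock genes, which respond to tissue handling, 1 (3.85%) was higher and the median was 0.03. This was Nfkbiz, which encodes a nuclear IκB protein (1.05 ± 0.22), with an adjusted p of 0.0124 to 0.029 without any 1 array other than CD103-CD11b- replicate 1. Fos differed by -0.00 ± 0.12.

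**Figure D5:**
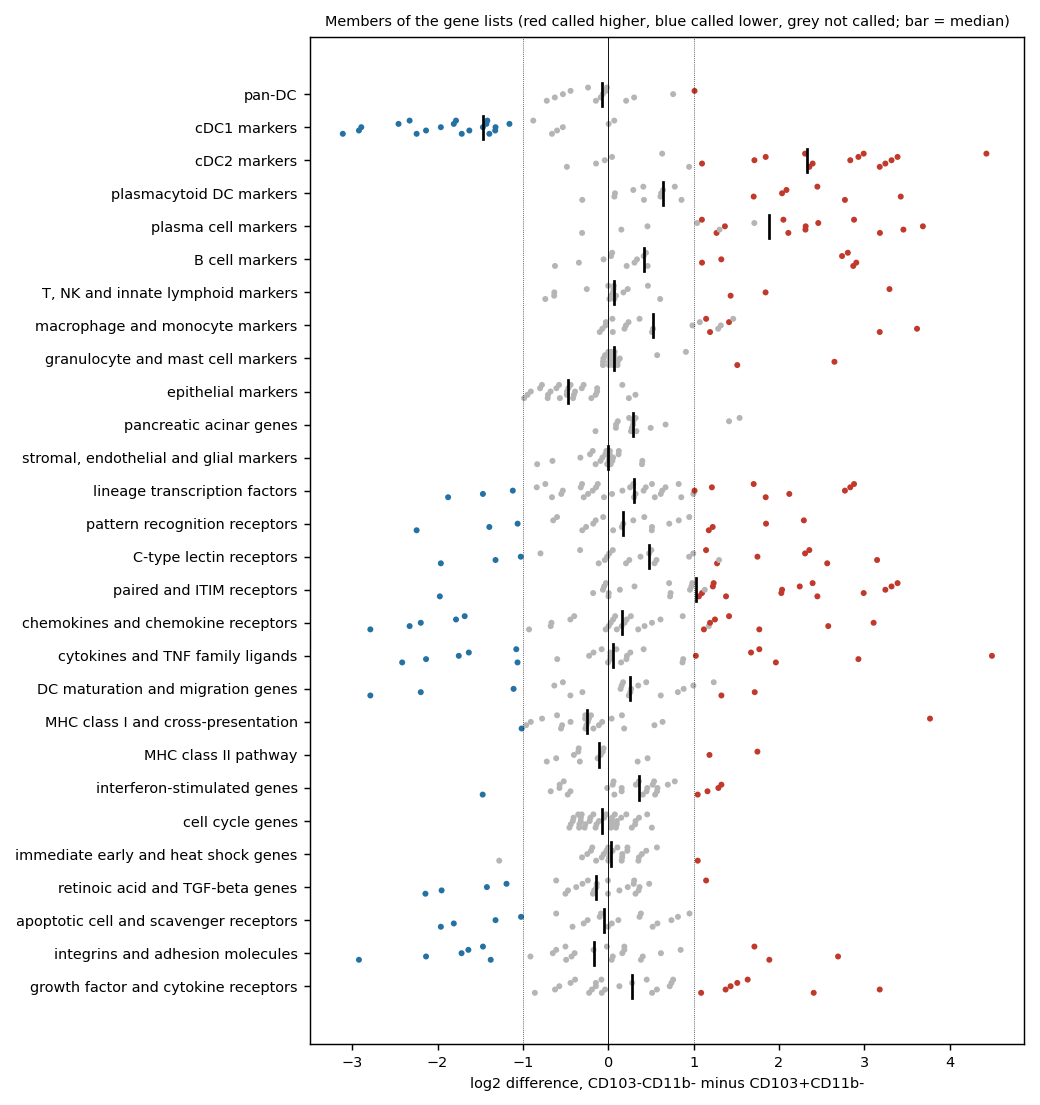
Difference in log2 signal between CD103-CD11b- and CD103+CD11b- DCs (horizontal axis) of each measured member of the 28 gene lists; red points were called higher, blue points called lower, grey points were not called, bars are medians and dotted lines are at -1 and 1. The cDC1 list lies to the left (median -1.47), the cDC2 and plasma cell lists to the right (medians 2.33 and 1.88) and the cell cycle list around 0 (median -0.08).

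To show where CD103-CD11b- DCs stood apart from every other DC population, they were also compared with both CD11b+ populations. Against CD103-CD11b+ DCs 71 genes (0.356% of all genes) were higher and 90 (0.451%) lower. Against CD103+CD11b+ DCs 181 (0.908%) were higher and 203 (1.02%) lower. Few genes were called here, so having no call in either comparison is common among all genes and does not show likeness. Of the 321 genes higher than in CD103+CD11b- DCs, 176 (0.883% of all genes) were called against neither CD11b+ population. A further 40 (0.201% of all genes) were higher than both and 11 (0.0552%) were lower than both. Of the 209 lower genes, 157 (0.787% of all genes) were called against neither, 15 (0.0752%) were higher than both CD11b+ populations and 11 (0.0552%) were lower than both. All these comparisons share the CD103-CD11b- arrays.

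Of the 40 genes that exceeded every other DC population, 2 were on the plasma cell list, 2 on the B cell list and 3 on the plasmacytoid DC list. The largest smallest differences were those of Pou2af1 (2.00), Cmah (1.99), Cd209d (1.92), Ctse (1.92) and Ly6d (1.89). Cmah, which encodes a sialic acid hydroxylase, read 7.20, 8.16 and 7.38 on the CD103-CD11b- arrays, and averaged 4.87 in the CD103+CD11b- population, 5.59 in the CD103-CD11b+ population and 5.33 in the CD103+CD11b+ population.

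Ctse, an endosomal aspartic protease gene, read 8.81, 9.20 and 8.62 against means, in the same order, of 6.75, 6.96 and 6.45. Cyp7b1, which encodes an oxysterol hydroxylase that takes part in making ligands of the receptor EBI2, read 6.84, 6.42 and 6.79 against means of 4.42, 4.89 and 4.50. Bst1, an ectoenzyme gene of stromal and myeloid cells, read 5.13, 6.25 and 6.33 against means of 3.93, 4.31 and 3.83. Replicate 2 was the highest of the CD103-CD11b- arrays for Pou2af1, Cmah, Ctse, Blnk and Tnfrsf17, and not for Cd209d, Ly6d, Cyp7b1, Siglech or Bst1. Without CD103-CD11b- replicate 2 the count was 20 in place of 40, and 19 of the 20 were among the 40. Cmah, Cd209d, Tnfrsf17, Cyp7b1 and Siglech were kept, while Pou2af1, Ctse, Ly6d, Blnk and Bst1 were lost.

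The 11 genes that fell short of every other DC population included Aldh1a2, Apol7c, Ccl17, Ccl22, Tnf, the IL-27 and IL-35 subunit gene Ebi3 and Tnfsf13b, which encodes the B cell survival factor BAFF. Apol7c had a mean of 7.78 in CD103-CD11b- DCs and, in the order above, 11.40, 10.14 and 10.72. Ebi3 and Tnfsf13b were named after their values were seen.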

How the data were processed

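The authors deposited log2 signals of Affymetrix Mouse Gene 1.0 ST arrays, made by Robust Multi-array Average (RMA), which corrects background, summarizes the probes of a probeset and makes the arrays' distributions alike by quantile normalization. Differences in total RNA are thereby removed, and signals near the background understate differences. Amplified RNA of sorted cells was hybridized, with 1 sample on each array and no counts, so that the number of arrays limits the precision. Of 35556 probesets, 21789 had 1 gene symbol in the array annotation. For each of 19938 genes the probeset with the highest mean was kept, and 999 genes had more than 1.

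Differences were fitted with limma 3.58.1 (lmFit and eBayes) in R 4.3.3 over all 15 arrays with a mean for each of the 5 populations. Values beside ± are standard errors (SE, n = 3 and 3 arrays) and adjusted p values are Benjamini-Hochberg over all genes. Replicates with the same number deviated together from their population means (r = 0.3055, 0.3773 and 0.1415 for numbers 1, 2 and 3, from titles of the arrays), so the replicate number was also fitted as a block. The fit was tested on simulated data. Replicates correlated at 0.9859 or above within each DC population and at 0.9775 or above among macrophages. The gene lists (28 lists, 670 of 719 entries measured) and members were chosen with earlier results of these data known, so list counts and medians carry no test. Genes were named as gate and lineage genes, as the 15 largest differences in each direction, as the first 2 members and up to 4 called members in each direction of each list, and as the 10 leading genes among those higher than in each other DC population. Promoters came from RefSeq tables. Figures used Python 3.11.15 and matplotlib 3.10.9.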

Additional observations from a re-analysis of the deposited data

How the results depend on the processing

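The counts of 321 genes higher and 209 genes lower in CD103-CD11b- than in CD103+CD11b- DCs ranged from 280 to 321 and from 181 to 239 when 1 array was left out, and were 295 and 243 with arrays centred on the median. No called gene named here changed sign under any alternative run. With the replicate number as a block the counts were 325 and 218, and no named gene changed its call. Of 117 named genes with a call, 100 kept it in every fit without 1 array, and 106 kept it under every alternative of scaling, probeset and array set. The largest losses came from tests that ask more of each gene. limma's treat, which tests for a difference over 1, called 78 higher and 38 lower, 4 and 7 against CD103-CD11b+ DCs, 18 and 30 against CD103+CD11b+ DCs, and 0 genes as higher than in each other DC population, where 20 had an unadjusted p under 0.05 in treat and 40 were called in limma. The methods' t-test after Benjamini-Hochberg adjustment under 0.05 called 134 higher and 107 lower. Of the 117 named calls, 59 were lost under treat and 48 under this t-test. Xcr1, Irf8 and Cd8a were lost under treat, and Clec9a, Btla, Itgam, Siglech, Jchain and Sdc1 under both. At an adjusted p under 0.05 in limma, 67 genes were higher than in each other DC population. Without 1 CD103-CD11b- array the count of 40 ranged from 20 (replicate 2) to 50 (replicate 3). It was not computed without an array of another population. The 71 genes higher than in CD103-CD11b+ DCs ranged from 33 (without CD103-CD11b+ replicate 2) to 76 (without CD103-CD11b- replicate 3). They were 45 without CD103-CD11b- replicate 2 and 41 without CD103-CD11b+ replicate 3. The cause of these shifts was not tested.

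Some list medians moved. With dim genes left out, which leaves fewer members, the medians were 0.86 for plasmacytoid DC markers, 2.03 for B cell markers, 0.61 for T, NK and innate lymphoid markers, 0.74 for granulocyte and mast cell markers, -0.65 for stromal, endothelial and glial markers, -0.0175 for integrins and adhesion molecules and 0.045 for growth factor and cytokine receptors. The plasmacytoid DC median of 0.64 was 0.67 after quantile normalization again, 0.59 with arrays centred on the median and 0.67 without replicate 2 of both CD11b- populations, a setting chosen after seeing the data. The median of lineage transcription factors, 0.30, was 0.34, 0.24 and 0.22 in the same settings. Without 1 array the medians ranged from 0.63 to 0.72 for plasmacytoid DC markers, 0.32 to 0.45 for B cell markers, 0.24 to 0.34 for lineage transcription factors, -0.27 to -0.12 for integrins and adhesion molecules, 0.16 to 0.75 for macrophage and monocyte markers, -0.61 to -0.29 for epithelial markers, 0.09 to 0.29 for pattern recognition receptors and 0.09 to 0.22 for chemokines and their receptors. Medians near 0 changed sign in some fits, as for stromal, endothelial and glial markers, cell cycle genes and immediate early and heat shock genes, and that of pancreatic acinar genes, 0.29, ranged from -0.61 to 1.41, being -0.61 without CD103-CD11b- replicate 2, -0.29 without CD103+CD11b- replicate 1 and -0.19 without CD103+CD11b- replicate 3. Signals near the background compress differences, and 3 arrays a population limit the precision of each value.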
